A study of Mus musculus with 50 samples.

Results

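The nuclear-encoded subunits of respiratory complex I were followed in synaptosomal RNA from the frontal cortex of mice that lack Sod2, the superoxide dismutase of mitochondria, and of wild-type mice. The list held 36 subunit genes, taken by name with earlier results of these data known. Of them 34 were matched to a probe, 30 by the array's own symbol and the others through an updated symbol (Ndufv3, Ndufb11, Ndufa12 and Ndufa13). Of the 34, 32 were above background on enough arrays to be tested, among 10093 genes tested in all. Where a gene had several probes, the brightest on average was used. The tested members were 5 core subunits (Ndufs3, Ndufs7, Ndufs8, Ndufv1 and Ndufv2) and 27 accessory subunits. Among the other 4, the core subunit Ndufs1 was above background on 0 of 50 arrays and Ndufab1, the mitochondrial acyl carrier protein, on 7 of 50. Ndufa11 and Ndufs5 were not matched to a probe and were not analysed here. Of the tested members 30 were above background on 50 of 50 arrays, Ndufb4 on 45 and Ndufb11 on 22.

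Complex I is the entry point for electrons from NADH into the mitochondrial respiratory chain, and it is a main site of superoxide formation in the matrix. Its peripheral arm consists of an N module, which oxidises NADH at a flavin, and a Q module, which passes the electrons over iron-sulfur clusters to ubiquinone. The membrane arm pumps protons. The core subunits carry the flavin, the clusters and the pump, while the accessory subunits surround them and take part in assembly and stability. Nerve terminals depend heavily on oxidative phosphorylation, and loss of matrix superoxide dismutase is known to damage enzymes that hold iron-sulfur clusters.

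Each array held RNA of an individual CD1 mouse aged 17 to 21 days. The groups were untreated wild types (9 arrays), wild types given the synthetic antioxidant at 1 mg/kg (low dose, 11 arrays) or at 30 mg/kg (high dose, 10 arrays), and constitutive Sod2 knockouts at the low dose (10 arrays) or the high dose (10 arrays). The labels call the compound EUK8 in the sample titles and EUK189 in the treatment field. No untreated knockout was among the arrays, so every knockout value comes from a treated animal. Median raw signal per array ran from 54.12 to 78.02, and 10198 to 12475 of 25697 probes were above background. Of 8 neuron and synapse markers 7 were above background on all arrays, and so were the 6 astrocyte, 5 oligodendrocyte and 6 microglia markers with a probe, 1 of 4 endothelial markers and 1 of 3 red blood cell markers. Transcripts of glia were thus measured along with those of nerve terminals. The Sod2 probe gave median log2 levels of 10.19 (low dose) and 10.10 (high dose) in knockouts, against 9.81 and 9.91 in wild types at these doses and 9.66 without treatment. The Sod2 signal was 0.41 ± 0.0954 (SE) log2 units higher in low-dose knockouts than in low-dose wild types (limma adjusted p = 0.00119), and whether the probe lies in the deleted part of the gene could not be read from the labels. The signal therefore does not check the genotype, and knockout and wild type are used here as labelled.

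Replicate 30 of the low-dose knockouts stood apart in the accessory subunits, and leaving it out was chosen after seeing the data. The median over the 27 accessory members of the log2 level minus its untreated mean was -1.16 on that array, against -0.08 to 0.26 on the other 9 low-dose knockout arrays and no lower than -0.58 on any other array. On replicate 30, 17 of 27 accessory members (63%) had their lowest level of all 50 arrays, against 6.56% of all probes tested, while 0 of 5 core members did and the core median was 0.12. Genes outside complex I shared the pattern: the median was -0.92 for subunits of complexes III and IV and -0.78 for cytosolic ribosomal proteins, with 32 of 55 of the latter at their lowest there. Its mean correlation with the arrays of its own group, 0.957, was the lowest of all 50. High-dose wild-type replicate 13 (accessory median -0.58, core median -0.34) and low-dose wild-type replicate 37 (accessory median -0.37) deviated the same way but less. The cause of these patterns was not tested, and counts of called members that rest on the low-dose knockouts are given with and without replicate 30.

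**Figure D1:**
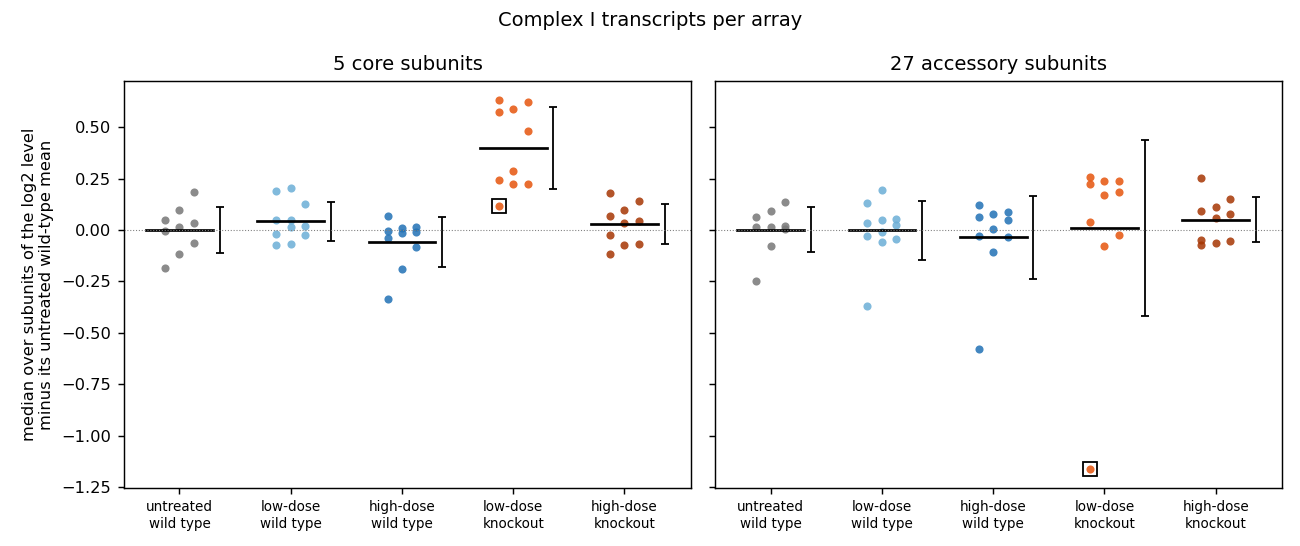
Each point is 1 array, plotted as the median over the 5 core subunits (left) or the 27 accessory subunits (right) of the log2 level minus the untreated wild-type mean, with lines for group means and bars for ± 1 SD; the squared point is low-dose knockout replicate 30. All 10 low-dose knockouts lie above 0 for the core subunits (0.12 to 0.64), while for the accessory subunits 9 of them lie between -0.08 and 0.26 and replicate 30 lies at -1.16.

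At the low dose, 7 of 32 complex I subunits rose in knockouts over wild types and none fell (limma, Benjamini-Hochberg adjusted p under 0.05 over 13466 probes), where 20.9% of all probes tested were called and 10.8% rose. The 7 held 4 of the 5 core subunits but 3 of the 27 accessory subunits. The median fitted change was 0.34 log2 units over the core subunits and 0.03 over the accessory subunits, beside -0.003 over all probes tested. The difference between core and accessory members was not tested. By module, 4 of 6 tested members of the Q module and its junction to the membrane arm rose, as did 1 of 8 of the N module, 2 of 7 of the proximal membrane arm and 0 of 10 of the distal membrane arm. The modules differed in brightness, with mean raw signals of 742.9 (Ndufs3) to 1576 (Ndufa6) in the Q module. All distal members but Ndufb8 (4187) were dimmer, from 67.72 (Ndufb11) to 593 (Ndufb3). Changes on dim probes are compressed, so these counts do not compare the modules on equal terms. Without replicate 30, 11 of 32 members rose, with 10.3% of all probes rising. The core count stayed at 4 of 5, the accessory count became 7 of 27, and the accessory median became 0.13. The modules then had 5 of 6 (Q module), 3 of 8 (N module), 2 of 7 (proximal arm) and 1 of 10 (distal arm) rising. In bulk RNA, fewer cell parts of a type and less RNA in each cannot be told apart.

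Among the Q-module genes, Ndufs3, a core subunit of the peripheral arm, showed the clearest separation. Its log2 level (lowest, median and highest array) was 9.04, 9.39 and 9.48 in untreated wild types, 9.11, 9.39 and 9.57 in low-dose wild types and 9.00, 9.37 and 9.45 at the high dose. Low-dose knockouts had 9.71, 9.98 and 10.15, and for those given 30 mg/kg the values were 9.17, 9.42 and 9.56. All 10 low-dose knockouts, replicate 30 included at 9.98, lay above every array of the other 4 groups. The share of all probes whose groups separate in this way was not counted, here or for the members below. The fitted rise at the low dose was 0.59 ± 0.0677 (SE) log2 units, or 1.5-fold (limma adjusted p = 6.56e-09), and 0.58 without replicate 30. Within each of the 6 chips that held both groups the knockout mean was higher, by 0.45 to 0.76.

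Ndufs7, the core subunit that holds the last iron-sulfur cluster before ubiquinone, had levels of 9.85, 10.07 and 10.27 in low-dose wild types and 9.84, 10.63 and 10.85 in low-dose knockouts. Replicate 30 was the lowest of these knockouts and the other 9, at 10.36 to 10.85, lay above all 11 low-dose wild types. The rise was 0.52 ± 0.0834 log2 units (1.43-fold, limma adjusted p = 6.81e-06), and 0.57 without replicate 30. Ndufs8, a core subunit that carries iron-sulfur clusters between the N module and Ndufs7, lay at 9.63, 9.82 and 10 in low-dose wild types and at 9.91, 10.11 and 10.42 in low-dose knockouts. The groups overlapped, with 8 of 10 knockouts above the highest wild type, and the rise was 0.34 ± 0.0681 log2 units (1.26-fold, limma adjusted p = 0.000219).

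Ndufa9, an accessory subunit with a nucleotide-binding fold at the junction of both arms, lay at 9.85, 10.18 and 10.37 in low-dose wild types and at 10.15, 10.49 and 10.68 in low-dose knockouts. Here replicate 30 was the highest of all 50 arrays, and 8 of 10 knockouts exceeded the highest wild type. The rise was 0.31 ± 0.0699 log2 units (1.24-fold, limma adjusted p = 0.000895). The remaining members of this module, Ndufa5 and Ndufa6, were not called, at 0.03 ± 0.160 and 0.16 ± 0.123 log2 units. Ndufa6 was 9.32 on replicate 30 and 10.49 to 11.02 on the other 9 low-dose knockouts, and without that array its change was 0.27 (limma adjusted p = 0.0244).

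**Figure D2:**
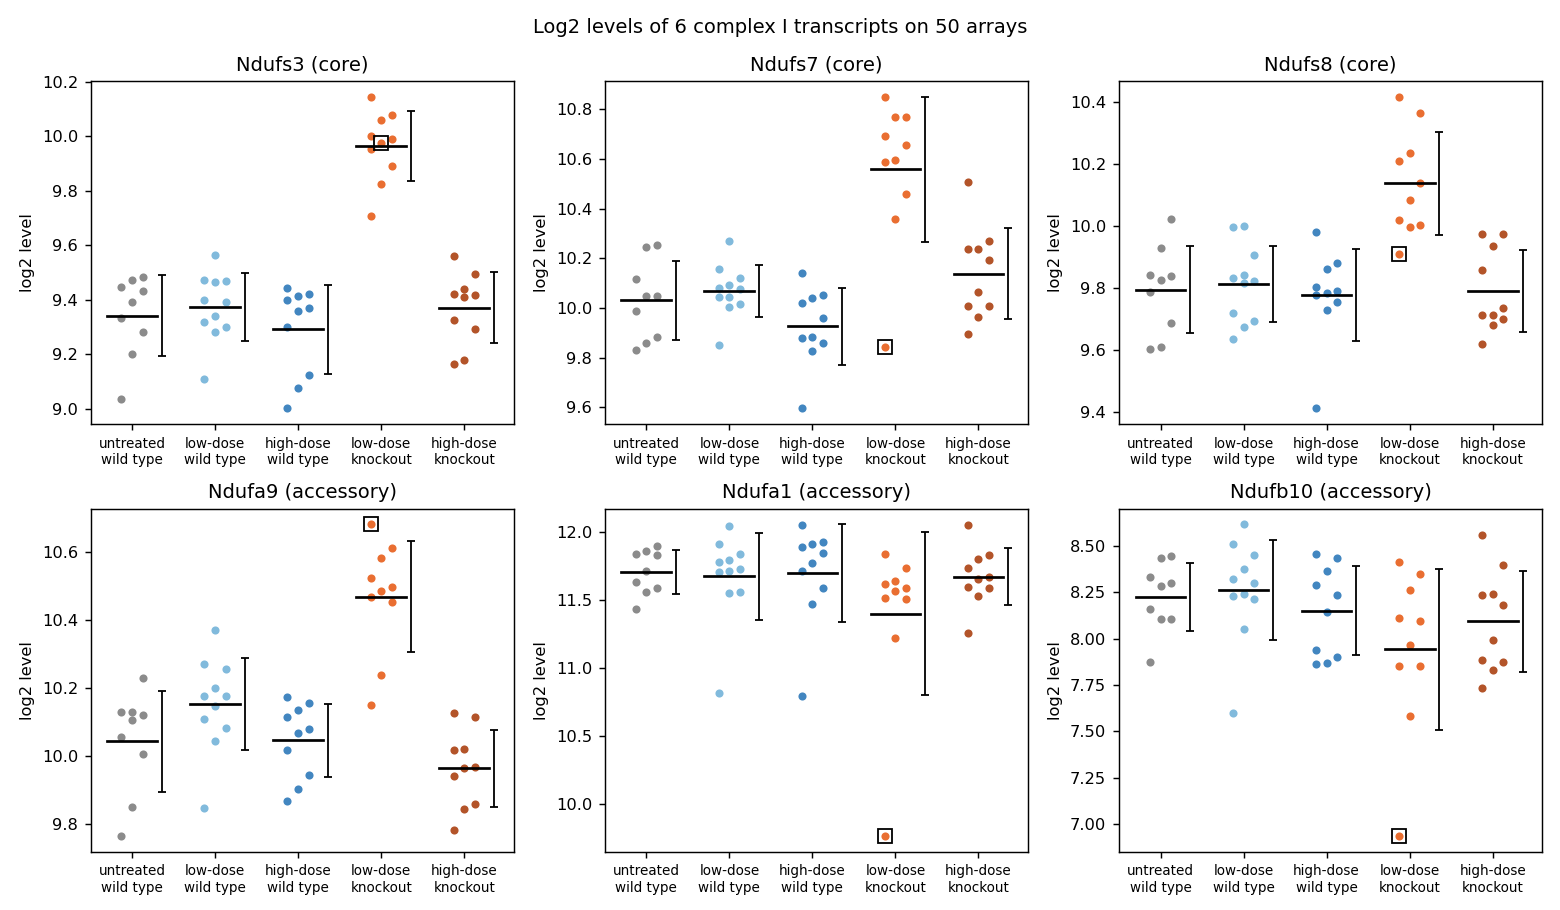
Log2 levels of 6 complex I transcripts on the 50 arrays by group, with group means (lines) and ± 1 SD (bars), each panel on its own axis; squares mark low-dose knockout replicate 30. Ndufs3 in the 10 low-dose knockouts (9.71 to 10.15) does not overlap any other group, whereas for Ndufa1 replicate 30 (9.76) lies far under the other 9 low-dose knockouts (11.22 to 11.84).

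The sequences just upstream of 3 of the Q-module genes that rose are shown because these members share a module and a direction. They are the 250 bases before the annotated gene start in RefSeq on GRCm38.p6, 5′ to 3′ on the strand of the gene, with matches to any of 6 motifs in capitals. Ndufs7 is not shown, since the start that the promoter table uses for it lies inside the annotated gene. Ndufs3 is at chr2:90904722-90904971 (minus strand), Ndufs8 at chr19:3912775-3913024 (minus strand) and Ndufa9 at chr6:126849145-126849394 (minus strand).
Ndufs3: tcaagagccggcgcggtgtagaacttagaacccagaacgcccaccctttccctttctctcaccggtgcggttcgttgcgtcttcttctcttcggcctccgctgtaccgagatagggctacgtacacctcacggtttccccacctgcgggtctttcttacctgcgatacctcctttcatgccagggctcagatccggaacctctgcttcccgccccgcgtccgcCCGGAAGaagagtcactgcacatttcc
Ndufs8: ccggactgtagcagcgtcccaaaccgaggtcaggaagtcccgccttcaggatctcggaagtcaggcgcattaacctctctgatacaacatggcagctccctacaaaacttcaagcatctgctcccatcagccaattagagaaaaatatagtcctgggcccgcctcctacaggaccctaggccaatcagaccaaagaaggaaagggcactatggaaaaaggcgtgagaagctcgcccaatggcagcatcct
Ndufa9: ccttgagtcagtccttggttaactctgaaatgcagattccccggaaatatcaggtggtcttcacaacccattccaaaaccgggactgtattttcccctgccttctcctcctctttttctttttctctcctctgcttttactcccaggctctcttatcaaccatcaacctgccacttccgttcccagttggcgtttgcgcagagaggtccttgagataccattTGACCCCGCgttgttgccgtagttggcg
The motifs, searched on both strands, were CGCATGCG (nuclear respiratory factor 1), AAGGTCA (oestrogen-related receptors), CCGGAAG (ETS factors, which include GABP), AAGATGGC (YY1), TGACNNNGC (antioxidant response element) and TGATGNAA (ATF4-C/EBP composite). Ndufs3 held 1 ETS match that starts 27 bases before the gene start, and Ndufa9 held 1 antioxidant response element match that starts 28 bases before it. Ndufs8 held none of the 6. Over all listed members, 5 of the 33 with a promoter in the table had a table start inside the annotated gene, so their windows are not wholly upstream of it. ETS matches stood in 3 of the 33 members, or 9.09%, against 7.83% of 27025 genes. Antioxidant response element matches stood in 5 of 33 members (15.2%), against 11.5% of all genes. Of the 7 members that rose 2 held the latter, as did 2 of the 23 other tested members with a promoter. The remaining motifs stood in 2 members for nuclear respiratory factor 1, 3 for oestrogen-related receptors and 0 for YY1 and for ATF4-C/EBP, against 1.75%, 4.70%, 1.83% and 3.91% of all genes. A match describes letters in these windows and not a bound site.

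In the N module, Ndufv2, the core iron-sulfur subunit beside the flavin, was called. Its levels were 9.86, 10.06 and 10.30 in low-dose wild types and 10.05, 10.39 and 10.71 in low-dose knockouts. The groups overlapped, with 6 of 10 knockouts above the highest wild type, and the rise was 0.33 ± 0.0771 log2 units (1.26-fold, limma adjusted p = 0.00114). Ndufv1, the core subunit that binds NADH and the flavin, lay at 9.94, 10.47 and 10.78 in low-dose wild types and at 10.38, 10.62 and 11.18 in low-dose knockouts. Its difference of 0.28 ± 0.114 log2 units missed the threshold (limma adjusted p = 0.0730), with a 95% interval of 0.05 to 0.51. The accessory N-module subunits were not called on all arrays, and 2 of them were called without replicate 30. Ndufa12, an accessory subunit of the peripheral arm, moved from 0.27 (limma adjusted p = 0.0934) to 0.37 (adjusted p = 0.00301) when that array was left out, and Ndufs4, whose loss in mice causes a severe encephalopathy, moved from 0.22 (adjusted p = 0.143) to 0.27 (adjusted p = 0.0426). The other 3 probes of Ndufs4 gave 0.01 to 0.08 log2 units in this comparison and were not called. The probes of Ndufv3 disagreed as well: the brightest and the next were both at 0.01, while a dim probe (above background on 35 of 50 arrays) rose by 0.35 (limma adjusted p = 0.00887).

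In the membrane arm, Ndufc2 and Ndufa10, both in its proximal part next to the Q module, were called. Ndufc2, an accessory subunit of the membrane arm, lay at 9.99, 10.29 and 10.48 in low-dose wild types and at 9.91, 10.71 and 11.55 in low-dose knockouts. Replicate 30 was the lowest knockout and the other 9 exceeded every low-dose wild type. The rise was 0.46 ± 0.116 log2 units (1.38-fold, limma adjusted p = 0.00256). Ndufa10, which resembles nucleoside kinases, had overlapping groups at 9.62, 9.89 and 10.07 against 9.65, 10.10 and 10.56, and a rise of 0.26 ± 0.0880 log2 units (limma adjusted p = 0.0280). That call was lost in 4 alternatives, with adjusted p of 0.05 (no filter on dim probes) to 0.219 (only the groups compared). One of these left out replicates 30, 13 and 37, the arrays low in accessory members (adjusted p = 0.0563). The lowest fitted changes of all 32 members were those of Ndufa1 and Ndufb10, both at -0.29 log2 units, with adjusted p of 0.208 and 0.0608. Ndufa1, a small single-pass membrane subunit, moved to -0.14 without replicate 30. Ndufb10, of the distal membrane arm, lay at 7.60, 8.30 and 8.61 in low-dose wild types and at 6.94, 8.03 and 8.41 in low-dose knockouts, and moved to -0.22. Of the distal members, Ndufb5 was called without that array, at 0.33 log2 units (limma adjusted p = 0.0285). Ndufa4, first described in complex I and now assigned to complex IV, differed by 0.03 log2 units and was not called.

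**Figure D3:**
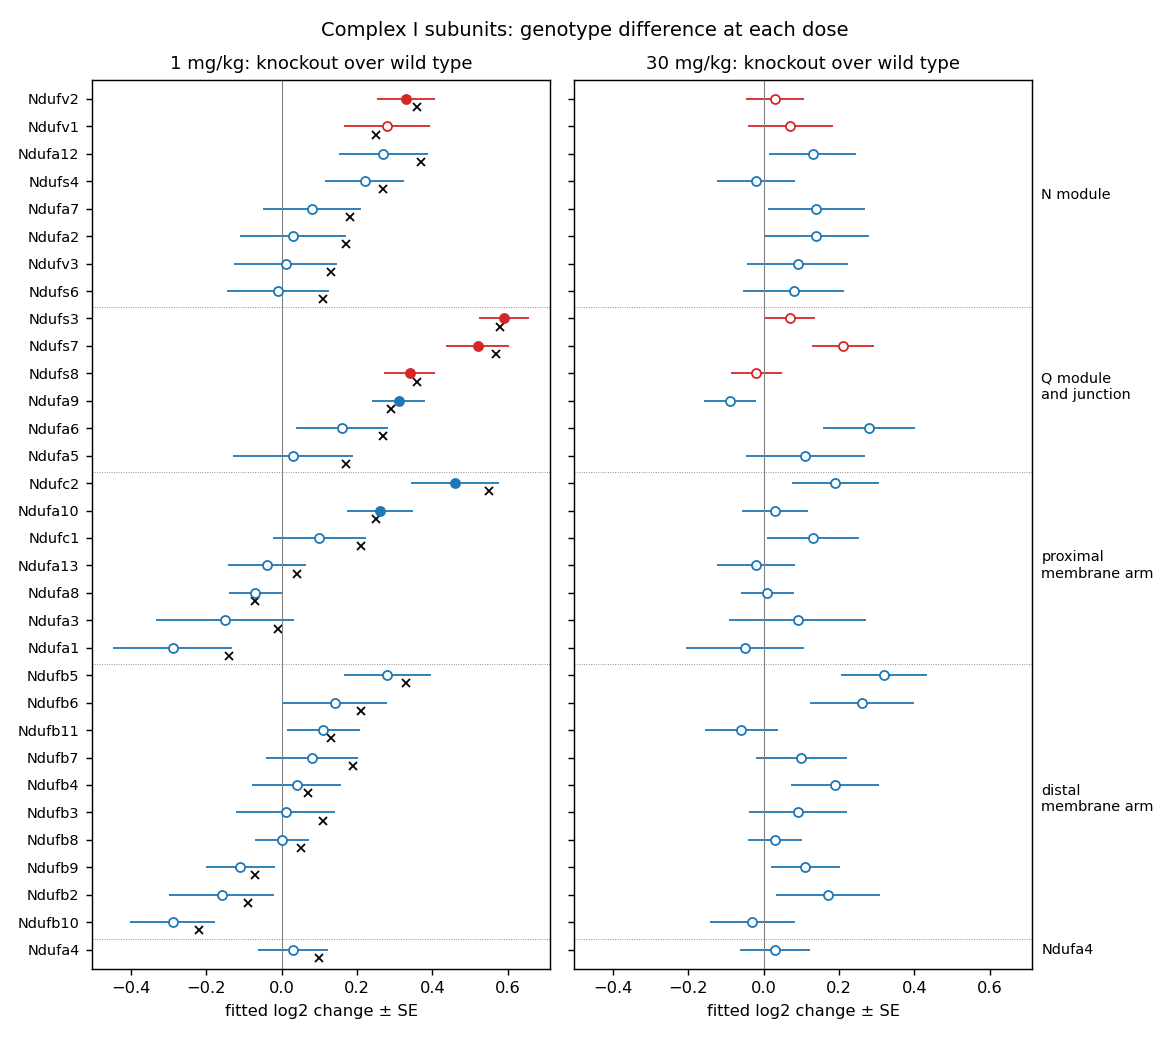
Fitted log2 change ± SE of the 32 tested subunits in knockouts over wild types at 1 mg/kg (left) and 30 mg/kg (right), in order of module, with core subunits in red, accessory subunits in blue and filled points for adjusted p under 0.05; crosses give the change without low-dose knockout replicate 30. The 7 filled points all lie on the left, from 0.26 (Ndufa10) to 0.59 (Ndufs3), and 4 of the 7 are core subunits.

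Markers of several cell types also differed between these groups. In the low-dose genotype comparison 4 of 7 tested neuron and synapse markers fell and none rose, with a median change of -0.59 log2 units, where 10.1% of all probes fell. Of the microglia markers 2 of 6 fell (median -0.29), of the oligodendrocyte markers 1 of 5 fell (median -0.14), of the astrocyte markers 2 of 6 fell and 1 rose (-0.71 to 0.38), and of the endothelial markers 1 of 4 rose (median -0.07). The summed normalised signal of the 8 neuron and synapse markers ran from 6123 to 9699 in low-dose knockouts, from 7510 to 13780 in low-dose wild types and from 10340 to 15030 in untreated wild types. The part of these shifts in the complex I values was not tested. Of all probes, 10.8% rose in this comparison. Among the other respiratory complexes, 2 of 3 tested subunits of complex II rose, with a median of 0.49. In ATP synthase 6 of 14 rose, with a median of 0.19. In complexes III and IV, 4 of 18 rose and 1 fell, with a median of 0.00. Without replicate 30, Atp5j also rose in ATP synthase (0.28, limma adjusted p = 0.0454) and Uqcrb in complex III (0.38, adjusted p = 0.0144).

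At the high dose none of the 32 subunits was called in knockouts over wild types, where 0.579% of all probes were called. At an unadjusted limma p under 0.05 there were 3 members and 11.2% of all probes. The median over members was 0.09 log2 units, and the fitted changes ran from -0.09 to 0.32. The largest were Ndufb5 at 0.32 ± 0.114 (limma adjusted p = 0.207), Ndufa6 at 0.28 ± 0.122 (adjusted p = 0.362) and Ndufb6 at 0.26 (adjusted p = 0.482). Ndufb5, an accessory subunit of the distal arm, had the wide range of 7.01 to 8.71 in high-dose knockouts and 6.90 to 7.90 in high-dose wild types. The lowest were Ndufa9 at -0.09, Ndufb11 at -0.06 and Ndufa1 at -0.05. Ndufs3 was at 0.07 ± 0.0672, with a 95% interval of -0.07 to 0.20, and Ndufs8 at -0.02, with an interval of -0.15 to 0.12. Those intervals lie below the low-dose estimates of the same genes, and Ndufs7, at 0.21 with an interval of 0.04 to 0.38, also lies below its own. The low-dose estimates have errors of their own, so this does not test a difference between doses. With all arrays in the fit, the interaction of Ndufs7 was not called.

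The difference between the doses in the genotype effect was tested as an interaction, in which 3 of 32 members fell and none rose, where 2.96% of all probes were called and 2.1% fell. Ndufs3 had an interaction of -0.52 ± 0.0947 log2 units (limma adjusted p = 0.000604), Ndufa9 one of -0.40 ± 0.0978 (adjusted p = 0.0139) and Ndufs8 one of -0.35 ± 0.0953 (adjusted p = 0.0281). All 3 belong to the Q module and its junction. Ndufs7 was at -0.31 ± 0.117 (adjusted p = 0.151), and without replicate 30 at -0.37 (adjusted p = 0.0385), which brings the count to 4 of 32 beside 1.79% of all probes falling. Ndufv2 was at -0.30 (adjusted p = 0.126) and Ndufc2 at -0.27 (adjusted p = 0.426), so that a difference between doses was not shown for them. The Ndufs8 call depended on the model, with adjusted p of 0.0516 to 0.0769 in 5 of the alternatives. The highest interactions were those of Ndufb2 at 0.32, Ndufb10 at 0.26 and Ndufa1 at 0.24, none of them called.

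Between the knockout groups, 7 of 32 members fell at the high dose relative to the low dose and none rose, where 20% of all probes were called and 10.6% fell. This comparison shares the 10 low-dose knockout arrays with those above, so its calls are not separate evidence. Ndufs3 fell by 0.60 ± 0.0665 log2 units (limma adjusted p = 5.52e-09), and the ranges of 9.17 to 9.56 and 9.71 to 10.15 did not overlap. Ndufa9 fell by 0.51 ± 0.0687 (limma adjusted p = 4.26e-07), from 10.15 to 10.68 at the low dose to 9.78 to 10.13 at the high dose, again without overlap. How many of all probes separate the knockout groups was not counted. Among the rest, Ndufs7 fell by 0.44, Ndufc2 by 0.39, Ndufv2 by 0.37, Ndufs8 by 0.35 and Ndufs4 by 0.32, with adjusted p from 0.000114 for Ndufs7 to 0.0222 for Ndufs4. For Ndufs3, Ndufs7, Ndufs8, Ndufv2, Ndufa9 and Ndufc2 the high-dose mean was lower within all 6 chips that held both groups. The other 3 probes of Ndufs4 gave changes of -0.05 to -0.13 and were not called, so its call belongs to 1 probe. The calls of Ndufc2 and Ndufs4 were lost with array medians set equal (adjusted p = 0.156 and 0.298) and with only the groups compared in the fit (adjusted p = 0.0813 and 0.111). At the other end stood Ndufa1 at 0.26, Ndufa3 at 0.24 and Ndufb2 at 0.17, none of them called. Of the neuron and synapse markers 6 of 7 rose at the high dose, with a median of 0.54, beside 9.33% of all probes rising. Without replicate 30 it was 5 of 7, beside 8.03% of all probes. Of the astrocyte markers 3 of 6 fell and 1 rose, and without replicate 30 1 fell and 1 rose. Without replicate 30, Ndufa12 also fell, by 0.29 (adjusted p = 0.0227), and the count was 8, beside 9.59% of all probes falling.

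Wild types showed no called difference in any of the 32 members between high and low dose, low dose and untreated, or high dose and untreated. For each of these, 0 of 13466 probes passed the adjusted threshold, and 0 members had an unadjusted limma p under 0.05, where 3.9%, 13.6% and 6.74% of all probes did. The fitted member changes ran from -0.20 to 0.18 between the doses, with Ndufb6 lowest and Ndufb11 highest. They ran from -0.21 (Ndufa3) to 0.17 (Ndufv1) for low dose over untreated, and from -0.22 (Ndufa2) to 0.17 (Ndufv1) for high dose over untreated. Ndufs3 was at -0.08, 0.01 and -0.07 in the 3 comparisons. With array medians set equal it was at 0.06, -0.23 and -0.17, none called, and the member median for low dose over untreated moved from -0.03 to -0.25, with all 32 members below 0 (-0.46 to -0.07) and a median of -0.091 for all probes. For high dose over untreated the member median moved from -0.08 to -0.18, beside -0.041.

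Against untreated wild types, 10 of 32 members rose in low-dose knockouts and none fell, where 32.1% of all probes were called and 15.8% rose. All 5 tested core subunits were among them, with Ndufs3 at 0.60 ± 0.0708 (limma adjusted p = 7.69e-09), Ndufs7 at 0.53, Ndufv1 at 0.45, Ndufs8 at 0.32 and Ndufv2 at 0.31. The accessory members called were Ndufc2 at 0.54, Ndufa9 at 0.41, Ndufb5 at 0.35, Ndufa10 at 0.31 and Ndufs4 at 0.28, the latter close to the threshold (adjusted p = 0.0480). Ndufv1 lay at 10.06, 10.33 and 10.50 in untreated wild types and at 10.38, 10.62 and 11.18 in low-dose knockouts, with 8 of 10 knockouts above the highest untreated array. The lowest values were Ndufa1 and Ndufa3, both at -0.36, and Ndufb10 at -0.25, none called. The medians were 0.45 for core and -0.01 for accessory members, beside 0.010 for all probes. The direction of the list in this comparison changed with the scaling of the arrays: when array medians were set equal in place of quantile normalisation, 1 core subunit rose (Ndufs3, 0.33, adjusted p = 0.00309) and 8 accessory subunits fell, while calls over all probes went from 15.8% rising and 16.3% falling to 6.49% and 26.2%. The accessory subunits that fell there were Ndufa1, Ndufa3, Ndufa8, Ndufb2, Ndufb3, Ndufb8, Ndufb9 and Ndufb10, by 0.30 to 0.63 log2 units. Without replicate 30, 11 members rose in the comparison on quantile-normalised values, beside 14.4% of all probes rising. The added member was Ndufa12, which then rose by 0.36 (limma adjusted p = 0.00387). All 7 neuron and synapse markers fell in this comparison, with a median of -0.86, where 16.3% of all probes fell. Of the oligodendrocyte markers 3 of 5 fell (median -0.35), while 2 of 6 astrocyte markers (median 0.33) and 1 of 6 microglia markers (median 0.17) rose. The part of these markers was not tested.

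High-dose knockouts did not differ from untreated wild types in any of the 32 members at the adjusted threshold, where 0.995% of all probes were called. An unadjusted limma p under 0.05 was seen for 2 members and for 15.1% of all probes. The largest changes were Ndufb5 at 0.25, Ndufv1 at 0.24 and Ndufc2 at 0.16, and the lowest were Ndufa3 and Ndufb10 at -0.13 and Ndufa9 at -0.10. Ndufs3 was at 0.00, with a 95% interval of -0.14 to 0.14, and at -0.18 (adjusted p = 0.246) with array medians set equal.

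Variation within the low-dose knockouts was uneven across the complex. Leaving replicate 30 aside, the 9 arrays spanned 9.71 to 10.15 for Ndufs3 and 10.36 to 10.85 for Ndufs7, but 10.50 to 11.55 for Ndufc2 and 7.36 to 8.71 for Ndufb5. On replicate 30 the levels were 9.76 for Ndufa1, 9.49 for Ndufa3 and 8.57 for Ndufa5, where the other 9 began at 11.22, 10.75 and 10.04. On the same array Ndufs3, Ndufa9 and Ndufa10 lay within or above the range of the others. The residual SD of the fit had a median of 0.260 log2 units over the 32 members, beside 0.205 over all probes.

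**Figure D4:**
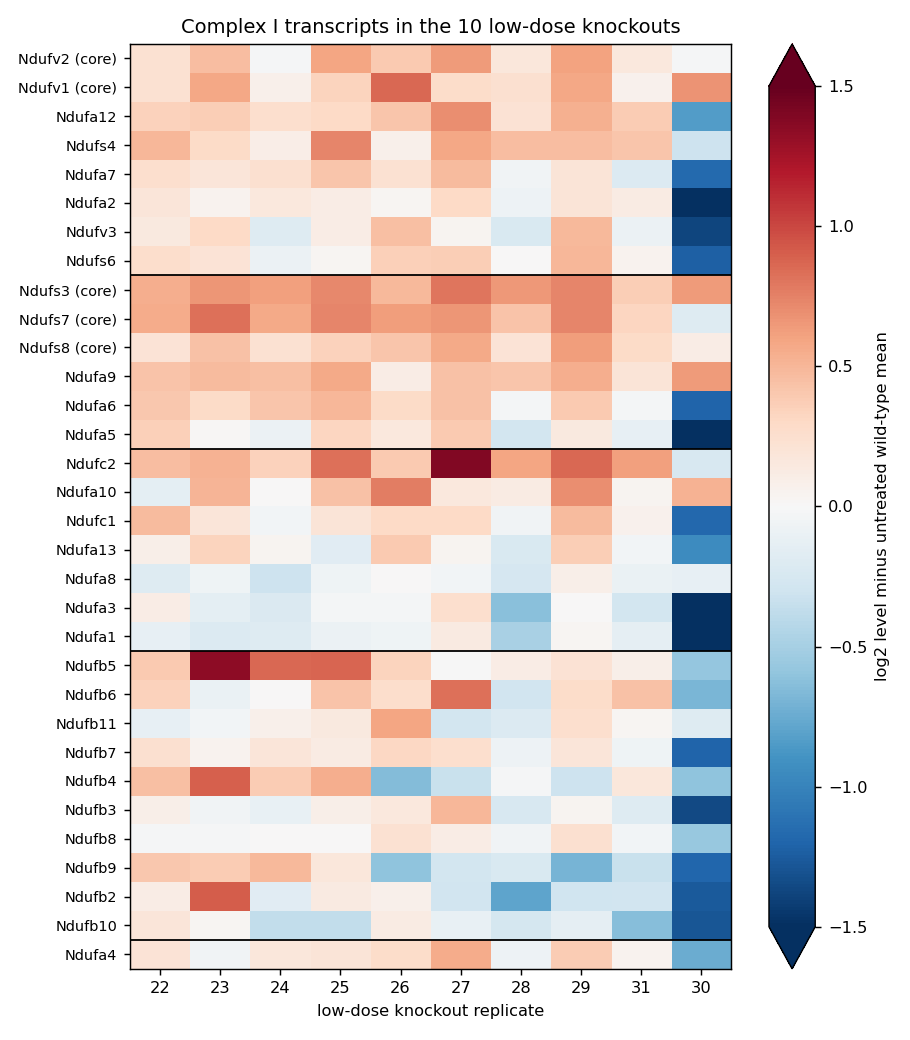
Log2 level minus the untreated wild-type mean for the 32 subunits (rows, by module) in the 10 low-dose knockouts (columns), with colours limited to ± 1.5. The rows of Ndufs3 and Ndufa9 are above 0 on every array, and the column of replicate 30 is below 0 for most accessory subunits while Ndufs3, Ndufa9, Ndufv1 and Ndufa10 are above 0 there.

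Assembly factors are proteins that help to build complex I without being part of it. Of 17 listed assembly factors 12 were tested, and at the low dose 3 rose in knockouts over wild types and none fell, with a median of 0.01, beside 10.8% of all probes rising. Those were Acad9, a flavoprotein of the assembly complex, at 0.36 ± 0.0683 (limma adjusted p = 8.70e-05), Ndufaf4 at 0.24 (adjusted p = 0.0166) and Foxred1, an oxidoreductase-like assembly factor, at 0.24 (adjusted p = 0.0201). At the high dose 0 of 12 were called, beside 0.579% of all probes. Between the knockout groups 4 fell at the high dose, namely Ndufaf4 and Foxred1 by 0.28, Acad9 by 0.25 and Ndufaf7 by 0.24, beside 10.6% of all probes. Without replicate 30 it was 3, beside 9.59% of all probes falling, since Ndufaf7 was then at -0.20 (limma adjusted p = 0.0755). Against untreated wild types 4 of 12 rose in low-dose knockouts (Foxred1 0.50, Acad9 0.42, Ndufaf7 0.39 and Ndufaf4 0.37) and Ndufaf3 fell by 0.34, where 15.8% of all probes rose and 16.3% fell.

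Of 12 listed regulators of mitochondrial biogenesis 8 were tested. In the low-dose genotype comparison Ppargc1b, a coactivator of mitochondrial genes, fell by 0.60 ± 0.105 (limma adjusted p = 2.76e-05) and none rose. That is 1 of 8 called, beside 20.9% of all probes called and 10.1% falling. Its relative Ppargc1a was at 0.33 ± 0.128 (adjusted p = 0.0624). Nrf1 was at 0.06, Tfam, which packages mitochondrial DNA, at 0.12 and Esrra at -0.28, none of them called. Between the knockout groups Ppargc1b rose by 0.46 at the high dose and Tfb2m, a mitochondrial transcription factor, fell by 0.34. These are 2 of 8, beside 20% of all probes called. Against untreated wild types, Ppargc1a rose in low-dose knockouts by 0.45 (adjusted p = 0.00807) and in high-dose knockouts by 0.56 (adjusted p = 0.0270), while Ppargc1b fell by 0.93 and by 0.47. Esrra also fell in low-dose knockouts, by 0.31 (limma adjusted p = 0.0412), a call that was lost without replicate 30 (-0.24, adjusted p = 0.0928). Against untreated wild types, 3 of 8 regulators were thus called in low-dose knockouts, beside 32.1% of all probes. In high-dose knockouts it was 2 of 8, beside 0.995%.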

How the data were processed

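The deposited table of non-normalized intensity (1 signal per probe and array, Illumina MouseRef-8 v2.0, per the file headers) was the starting point. The deposited log2 value table of the same arrays served as an alternative, and its array medians of 6.02 to 6.03 and its correlation with the raw signal of at least 0.999 were the basis for calling it normalized by the authors. The labels give Trizol extraction and 1 round of amplification, and the software behind the signals is not stated there. No detection values were used, so a probe was counted above background when its signal exceeded the peak of the array's low signals by 1.645 of their SD, and was tested when this held on at least 9 arrays. Signals were background-corrected (normexp, offset 16), quantile-normalised and put on the log2 scale. The groups were then fitted with chip (7 chips) as a term in limma 3.58.1 under R 4.3.3, with 39 residual degrees of freedom and Benjamini-Hochberg adjustment over 13466 probes. Folds are on this log2 scale and are compressed for dim probes. Symbols were updated through the RefSeq gene table. Named members were those called in any comparison, the core subunits, the 3 highest and 3 lowest changes of each comparison, and called assembly factors and regulators. Members and lists were chosen with earlier results of these data known. Alternatives changed the chip term, background correction, offset, scaling, filter, probe choice and the arrays fitted. The fit was also run on simulated data with independent normal noise. Those data held no array that stands apart as replicate 30 does, so that run does not cover such arrays. Arrays came from individual mice, and the number of arrays limits the precision.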

Additional observations from a re-analysis of the deposited data

Results flagged for a closer look

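Single arrays lay far from the rest of their group in 31 of 128 comparisons of a member's level within a group, where the gap to the next array was large against the group's range. The low-dose wild types, with 11 arrays, were not examined in this way, because the rule covered smaller groups only. Their replicate 37 was thus not assessed. Chance flags about 1 in 20 groups, and members on the same array are not independent of each other. Of the 31, 16 were low values on low-dose knockout replicate 30 and 14 were low values on high-dose wild-type replicate 13. Those of replicate 30, on the log2 scale, were as follows. They held Ndufa1 at 9.76 (next array 11.22), Ndufa12 at 9.38 (next array 10.44), Ndufa13 at 11.49 (next array 12.21) and Ndufa2 at 9.71 (next array 11.15). Also low were Ndufa3 at 9.49 (next array 10.75), Ndufa4 at 11.41 (next array 12.07), Ndufa5 at 8.57 (next array 10.04) and Ndufa6 at 9.32 (next array 10.49). Below the others were Ndufa7 at 9.41 (next array 10.37), Ndufb3 at 7.82 (next array 8.94), Ndufb7 at 6.60 (next array 7.73) and Ndufb8 at 11.44 (next array 11.95). The last were Ndufc1 at 9.85 (next array 10.97), Ndufs6 at 10.12 (next array 11.26), Ndufs7 at 9.84 (next array 10.36) and Ndufv3 at 9.44 (next array 10.59).

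On high-dose wild-type replicate 13 the same was seen for many of the same kind of member. Low there were Ndufa1 at 10.79 (next array 11.46), Ndufa12 at 9.35 (next array 10.05), Ndufa2 at 10.03 (next array 10.85) and Ndufa5 at 9.05 (next array 10.11). Next came Ndufa6 at 9.44 (next array 10.41), Ndufa7 at 9.59 (next array 10.35), Ndufa8 at 10.11 (next array 10.52) and Ndufb3 at 8.07 (next array 8.99). Also under the rest were Ndufb7 at 6.85 (next array 7.57), Ndufb8 at 11.59 (next array 11.90), Ndufc1 at 10.10 (next array 10.88) and Ndufs6 at 10.42 (next array 11.25). The list ended with Ndufs8 at 9.41 (next array 9.73) and Ndufv3 at 9.98 (next array 10.73). The remaining case was a high value, Ndufa13 at 12.79 on high-dose knockout replicate 5, with the next array at 12.53. The accessory median was -1.16 on replicate 30, with the next array at -0.08, and -0.58 on replicate 13, with the next at -0.11. Their cause was not tested.

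The interaction of genotype and dose was called for Ndufs3 (-0.52), Ndufa9 (-0.40) and Ndufs8 (-0.35 log2 units). These are 3 of 32 members, where 2.96% of all probes were called and 2.1% fell. The call of Ndufs8 depended on the model, as given above.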

How the results depend on the processing

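Of 126 recomputed counts of called members, 123 stayed within 1.5 times the main count without a change of direction. These include comparisons with 0 called members in every setting, which show nothing about stability. They were the comparisons among wild types and those of high-dose knockouts with high-dose or untreated wild types. Leaving out low-dose knockout replicate 30 gave 11 called members in place of 7 at the low dose, beside 19.8% of all probes called. Leaving out the 3 arrays low in accessory members also gave 11. There 10 rose and Ndufb10 fell, beside 10.6% of all probes rising and 9.59% falling. Both exclusions were chosen after seeing the data. Setting array medians equal turned the direction of low-dose knockouts over untreated wild types. There 9 members were called and 8 of them fell, beside 26.2% of all probes falling. It also moved Ndufs4 in this comparison from 0.28 to -0.02 (limma adjusted p = 0.944). The cause was not tested. In the low-dose genotype comparison the same scaling gave 6 rising and 1 falling (Ndufb10), beside 7.13% of all probes rising and 7.01% falling. Of 378 recomputed single-member calls, 348 kept their side of the threshold and direction, 29 lost the call and 1 reversed; 12 of the 29 came with median scaling and 6 with fitting only the groups compared. No paired analysis was run. The replicate numbers run on from group to group, so whether animals of different groups were littermates cannot be read from them. Signal over background limits Ndufb11, Ndufb4, Ndufs1 and Ndufab1.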
